A study of Homo sapiens and Mus musculus with 33 samples.

Results

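MYC and the MAX network are described here as 9 genes, MYC, MAX, MXD1, MXD3, MXD4, MXI1, MNT, MGA and MLX. They were picked by symbol among the 36601 human genes of the single-cell tables, by their title-case orthologs among 32285 mouse genes, and by position among the 18147 named genes of the Jurkat bulk tables. All 9 were found in each. The bulk tables come from SLAM-seq of the Jurkat line, human leukaemic T cells of clone E6-1, as 3 control libraries, 3 libraries treated with 50 nM CPT and 3 treated with 1 µM ETO. All 9 libraries, the controls included, are titled as labelled with 4-thiouridine (4sU), a uridine analogue that is read as C in place of T after iodoacetamide (IAA) treatment. The 4sU dose, the length of treatment and a vehicle for the bulk controls are not given in the sources used here. Single-cell libraries come from Jurkat cells given DMSO (clone E6-1) or PMA and ionomycin (labelled clone E6-2), 2 libraries each and all with 4sU. They also come from mouse lymph node T cells at 0, 2, 4, 6 and 8 h of anti-CD3 and anti-CD28 stimulation with 4sU and 1 library without 4sU, with no strain or age given. The remaining single-cell libraries are 3 of eHAP, a haploid human line (10x without 4sU, formaldehyde-fixed NOTE-seq with 4sU, methanol fixation with 4sU), 1 mix of Jurkat and mouse NIH3T3 fibroblasts without 4sU, and 2 labelled K562 with 4sU (1 without and 1 with IAA).

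As background, MYC is a short-lived transcription factor that drives growth, ribosome production and metabolism, and it binds DNA only as a pair with MAX. MAX also pairs with the MXD proteins, MXI1, MNT and MGA, which occupy the same E-box sites and mostly repress them, the MXD proteins and MNT through SIN3 corepressors and MGA through a Polycomb complex named PRC1.6. MLX is a MAX-like partner that joins the glucose sensors MLXIP and MLXIPL and can pair with some MXD proteins and MNT. In T cells, receptor signalling is known to induce MYC, which is needed for the growth that precedes division, and resting lymphocytes are known to express MXD4 and MXI1.

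In RefSeq (GRCh38.p14) MAX lies at chr14:65006101-65102695 (minus strand), MXD1 at chr2:69915109-69942945 (plus), MXD3 at chr5:177305499-177312752 (minus), MXD4 at chr4:2247432-2262109 (minus), MXI1 at chr10:110207605-110287365 (plus), MNT at chr17:2384073-2401060 (minus), MGA at chr15:41621224-41769940 (plus) and MLX at chr17:42567100-42573203 (plus). The RefSeq promoter table, which holds 250 bases before to 50 after a gene's start, has promoters for the members other than MYC. The canonical E-box, CACGTG, reads the same on both strands. It was present in 1 promoter each of MXD4, MNT and MLX and in none of those of MAX, MXD1, MXD3, MXI1 and MGA, so 3 of 8 members had it, against 8.78% of all 27305 genes of the table and 7.26% of all 35116 promoters. A match is a description of the letters and no sign of binding. These windows show CACGTG in those promoters, 5′ to 3′ on the gene's strand with the E-box in capitals, 30 bases each. The MXD4 window is at chr4:2262330-2262359 with the motif 238 bases before the start, the MNT window at chr17:2401236-2401265 with the motif 193 bases before it, and the MLX window at chr17:42567038-42567067 with the motif 50 bases before it:
MXD4: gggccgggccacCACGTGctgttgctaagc
MNT: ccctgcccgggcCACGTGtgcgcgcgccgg
MLX: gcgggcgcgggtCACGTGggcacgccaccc

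Between 17776970 and 39602287 reads a library entered the bulk tests, of which those carrying a T-to-C conversion, called new RNA, were 1.98% to 2.08% for control, 1.27% to 1.30% for CPT and 2.21% to 2.22% for ETO. Mitochondrial genes, which stayed out of the tests, took 1.05% to 1.24% of all control, 5.31% to 6.68% of CPT and 2.88% to 3.03% of ETO reads. The part of this shift in the results was not tested. The Jurkat single-cell libraries held up to 2296 cells and all 8 T cell markers. The 2 libraries labelled K562 held 0 and 1.78 CPM (counts scaled to the library's total) over 8 erythroid markers. HBG1, HBG2 and HBE1 were at 0 in both. They held 319 and 328 CPM over 7 myeloid markers. The 6 B cell markers summed to 31.7 and 36.9 CPM and the 8 T cell markers to 43.0 and 23.6 CPM. The same myeloid markers summed to 129, 149 and 261 CPM in the eHAP libraries and 514 CPM in NIH3T3 cells, so they name no cell type here. The K562 label is therefore not borne out by the erythroid markers, and these 2 libraries are called K562-labelled below. No 2 libraries shared more than 6 cell barcodes. The labels do not say that replicates came from separate cultures, so p-values reflect only how far these libraries differ, possibly for technical reasons. In bulk RNA, fewer cells of a type and less RNA per cell cannot be told apart.

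The first question was how CPT and ETO changed the total RNA of the network, from all reads of a gene scaled to CPM by edgeR's TMM factors. Reads come from the 3' end, so a gene's count does not scale with its length. MYC, whose gene lies on chromosome 8, fell with CPT, and no difference passed the test with ETO. Its total RNA level was 89.3, 101 and 106 CPM in the control libraries, 12.4, 13.1 and 13.7 CPM with CPT, and 99.8, 103 and 92.7 CPM with ETO. The CPT libraries lay far below all others, and the ETO libraries fell among the controls. The mean went from 98.6 ± 8.39 (SD, n = 3) to 13.1 ± 0.661 CPM with CPT, a level 7.54 times lower (log2 difference −2.91 ± 0.086 SE, edgeR quasi-likelihood adjusted p = 7.8e-17). With ETO the difference was −0.0028 ± 0.073 (edgeR adjusted p = 0.98). Set directly against each other, CPT stood below ETO by 2.91 ± 0.086 on the log2 scale (edgeR adjusted p = 8.5e-16). By p-value MYC came 10th of all genes for CPT against control and 1st for CPT against ETO. Among the 4072 genes called lower with CPT than in control, 33 fell further than MYC.

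MAX, the shared partner, moved little. Its level was 205, 195 and 183 CPM in control, 158, 182 and 163 CPM with CPT and 175, 190 and 185 CPM with ETO, which made it the most abundant member in every bulk library. The CPT libraries lay just under the lowest control. MAX fell by 0.21 ± 0.063 on the log2 scale with CPT (edgeR adjusted p = 0.0075), and differed by −0.08 ± 0.063 with ETO (edgeR adjusted p = 0.34). CPT against ETO gave −0.13 ± 0.064 (edgeR adjusted p = 0.12), which was called without CPT library 2 (−0.20, edgeR adjusted p = 0.032).

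The MXD antagonists moved in different directions. MXD4 rose with CPT from 20.2, 20.8 and 24.1 CPM to 48.7, 47.7 and 50.6 CPM, and stood between at 28.2, 28.01 and 25.3 CPM with ETO. Its 3 groups did not overlap. The log2 difference was 1.17 ± 0.091 for CPT (edgeR adjusted p = 7e-10) and 0.32 ± 0.091 for ETO (edgeR adjusted p = 0.0080), and CPT exceeded ETO by 0.85 ± 0.090 (edgeR adjusted p = 2.8e-07). MXD1, the scarcest member in control, rose with both, from 4.89, 6.34 and 6.10 CPM to 11.99, 10.2 and 9.16 CPM with CPT and to 10.9, 8.05 and 8.43 CPM with ETO. All treated libraries lay above all controls. The differences were 0.86 ± 0.17 and 0.65 ± 0.17 (edgeR adjusted p = 1.9e-04 and 0.0035), and CPT did not differ from ETO beyond the spread (0.20 ± 0.16, edgeR adjusted p = 0.37).

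MXD3, a family member linked to proliferating cells, went the other way with ETO. It stood at 16.2, 16.1 and 15.5 CPM in control and at 10.3, 10.2 and 10.2 CPM with ETO, a fall of 0.64 ± 0.11 on the log2 scale (edgeR adjusted p = 1.1e-04). With CPT it stood at 14.1, 13.8 and 15.0 CPM (−0.16 ± 0.11, edgeR adjusted p = 0.25), above ETO by 0.49 ± 0.11 (edgeR adjusted p = 0.0023). The 3' UTR of MXD3 lies opposite lines of PRELID1, which are deposited with a strand of their own.

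MXI1 had 15.5, 19.4 and 18.2 CPM in control, 12.3, 13.0 and 15.7 CPM with CPT and 21.7, 14.7 and 19.3 CPM with ETO, and its groups overlapped. It passed the test as lower with CPT (−0.38 ± 0.14, edgeR adjusted p = 0.029). That call was lost without control library 2 or 3 or CPT library 1 or 2 (edgeR adjusted p = 0.12, 0.075, 0.0997 and 0.082). MXI1 was also called lower with CPT than with ETO (−0.44 ± 0.14, edgeR adjusted p = 0.020), which was lost without CPT library 1 or 2 or ETO library 1 or 3 (edgeR adjusted p = 0.076, 0.064, 0.12 and 0.067). MNT, a widely expressed antagonist, rose with both treatments, from 18.6, 16.9 and 18.1 CPM to 26.2, 19.5 and 25.6 CPM with CPT and 27.6, 26.8 and 25.6 CPM with ETO. The log2 differences were 0.41 ± 0.11 and 0.58 ± 0.11 (edgeR adjusted p = 0.0037 and 2.2e-04). CPT library 2 stood nearest the controls.

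MGA fell with CPT, from 33.04, 32.2 and 31.8 CPM to 23.1, 22.9 and 26.3 CPM (−0.42 ± 0.090, edgeR adjusted p = 4.6e-04), and had 29.9, 32.4 and 33.1 CPM with ETO (−0.02 ± 0.087, edgeR adjusted p = 0.88). MLX had 89.1, 75.2 and 71.6 CPM in control, 77.1, 71.4 and 67.1 CPM with CPT and 95.7, 91.4 and 93.2 CPM with ETO. Its rise with ETO (0.25 ± 0.078, edgeR adjusted p = 0.015) was not called without control library 2 or 3 or ETO library 1 (edgeR adjusted p = 0.080, 0.11 and 0.059). MLX was lower with CPT than with ETO by 0.38 ± 0.079 on the log2 scale (edgeR adjusted p = 7.6e-04).

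In total RNA 7 of the 9 members passed the test for CPT (3 higher, 4 lower), where 52.0% of all 14842 genes and unnamed 3' UTR groups did. For ETO 5 of 9 passed (4 higher, 1 lower), against 37.9% of all, and for CPT against ETO 6 of 9 (2 higher, 4 lower), against 33.9%. With so broad a background, a call alone sets no member apart, and the largest difference among the members was the fall of MYC with CPT. The CPT and ETO comparisons share the control libraries.

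**Figure D1:**
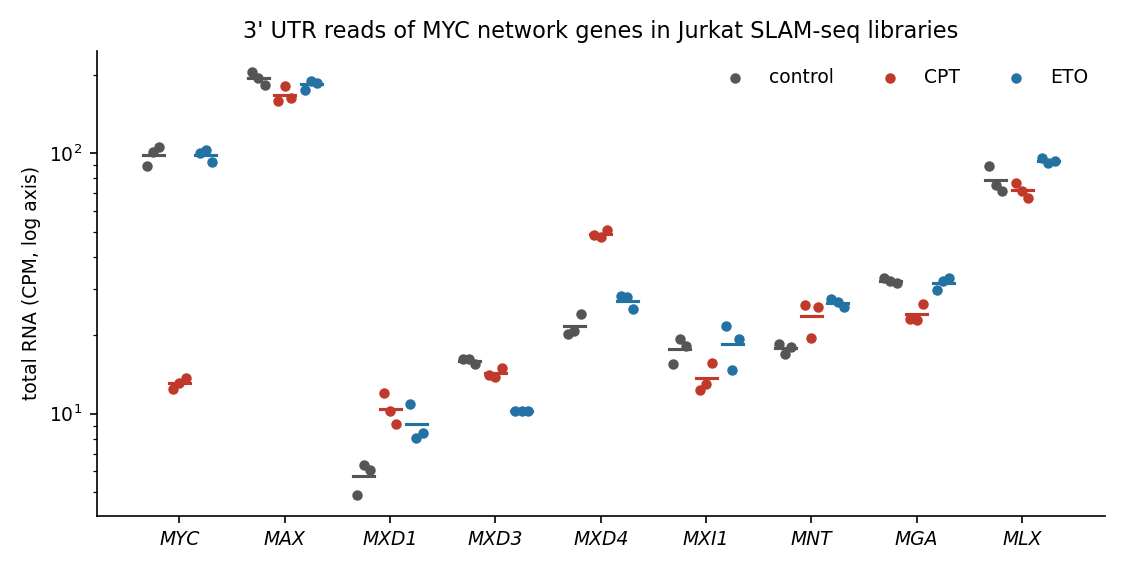
Points are the 9 Jurkat SLAM-seq libraries and lines the means of 3 (total RNA in CPM, log axis) for each member in control, CPT and ETO. MYC stands near 13.1 CPM with CPT against 98.6 CPM in control, and MXD4 near 49.0 CPM with CPT against 21.7 CPM.

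**Figure D2:**
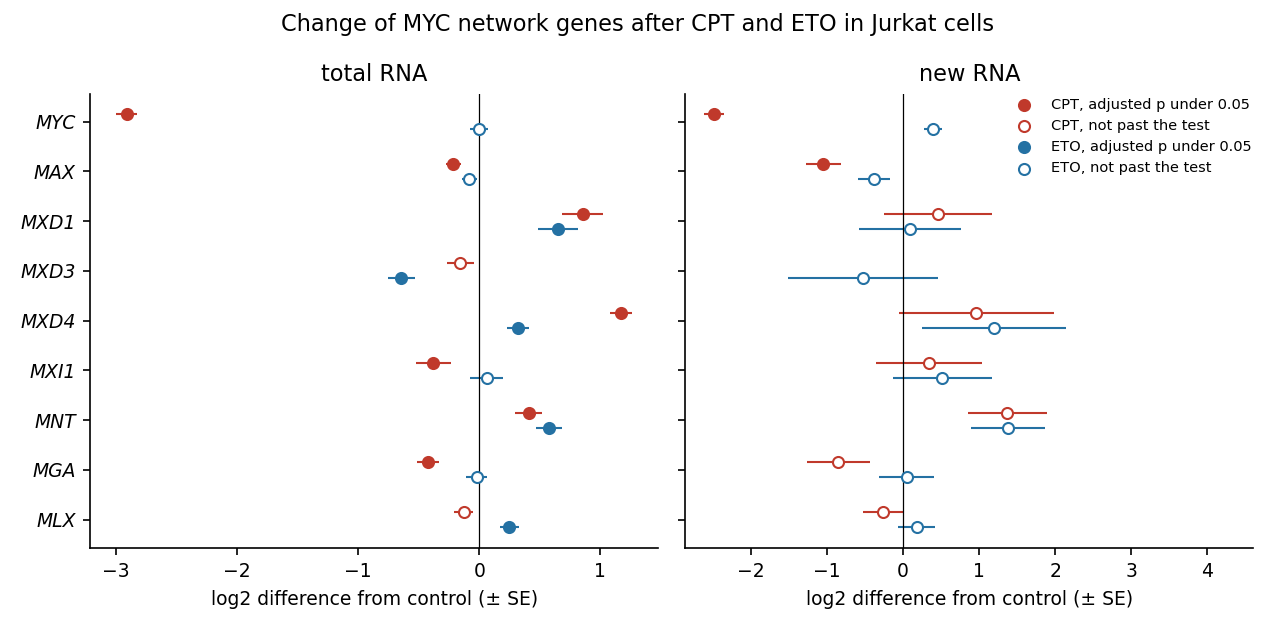
Points are log2 differences from control (± SE, 3 against 3 libraries) of total RNA (left) and new RNA (right), filled where the edgeR adjusted p is under 0.05. MXD3 after CPT is left out on the right, since it had 0 new reads. MYC lies at −2.91 and −2.49 with CPT and at −0.0028 and 0.39 with ETO.

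The balance inside the network was read from counts of the same library, which needs no scaling between libraries. MYC had 1.25 ± 0.055 reads for each read of the 5 antagonists MXD1, MXD3, MXD4, MXI1 and MNT together in control, 0.118 ± 0.0081 for CPT and 1.08 ± 0.084 for ETO (SD, n = 3). The values ran from 1.18 to 1.29 in control, from 0.110 to 0.126 with CPT and from 1.01 to 1.17 with ETO, so no groups overlapped. Each comparison with control gave p = 0.1 in an exact two-sided permutation test, the lowest value 3 against 3 allows. Of the reads of all 9 members MYC held 20.4% ± 2.11 in control, 3.38% ± 0.168 with CPT and 19.7% ± 0.825 with ETO.

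Next came new RNA, the reads with a conversion, scaled to the new reads of each library. MYC dominated the network there. Its new RNA level was 1145, 1382 and 1352 CPM in control, 219, 236 and 236 CPM with CPT, and 1779.6, 1769.7 and 1549 CPM with ETO, from 766 to 1539 new reads a library outside CPT and 53 to 66 with CPT. The CPT libraries were again far below, and all ETO libraries lay above all controls. MYC fell by 2.49 ± 0.13 on the log2 scale with CPT (edgeR adjusted p = 6.4e-12), the smallest p of all 9047 genes tested. With ETO it differed by 0.39 ± 0.11 (edgeR adjusted p = 0.078), and that difference passed when library sizes came from all reads (0.44, edgeR adjusted p = 0.028), by DESeq2 (0.40, DESeq2 adjusted p = 0.0082) and in a fit of the 2 groups alone (0.40, edgeR adjusted p = 0.0015). CPT stood below ETO by 2.88 ± 0.13 (edgeR adjusted p = 2.7e-13).

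MAX also fell in new RNA with CPT, from 298, 317 and 311 CPM to 117, 136 and 196 CPM (−1.05 ± 0.23, edgeR adjusted p = 0.0059), and had 251, 221 and 240 CPM with ETO (−0.38 ± 0.21, edgeR adjusted p = 0.49). The groups did not overlap. MYC and MAX were the 2 of 9 members called for CPT, where 6.26% of all genes were called. No member was called for ETO by edgeR, against 1.96% of all genes; 2 members had an unadjusted p under 0.05, DESeq2 called 1 (MYC) and the fit of 2 groups called 2 (MYC and MNT). MYC alone was called for CPT against ETO, against 2.00%; MAX stood at −0.67 ± 0.23 there (edgeR adjusted p = 0.14) and was called without CPT library 3 (−0.91, edgeR adjusted p = 0.034).

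The other 7 members had few new reads, from 0 to 207 a library, and none was called by edgeR over the 3 groups with library sizes from new reads. MXD3 had 7, 13 and 13 new reads in control, 6, 5 and 10 with ETO and 0 in all 3 CPT libraries. With 3 reads over the CPT group in place of 0, its new RNA was 3.91 times lower with CPT than in control (15.6 CPM pooled). This is no firm limit, since reads may be copies and the counting error of the control is left out. DESeq2 called MXD3 lower with CPT (DESeq2 adjusted p = 0.044). MXD1 had 18, 27 and 28 new reads in control and 16, 0 and 18 with CPT, and MXD4 had 1, 9 and 14 in control and 12, 0 and 4 with CPT. CPT library 2 had 0 new reads for both, from 242 and 1130 total reads. MNT had 17, 22 and 15 new reads in control, 15, 18 and 17 with CPT and 54, 29 and 44 with ETO. Its new RNA stood 1.37 ± 0.52 higher with CPT and 1.38 ± 0.49 higher with ETO on the log2 scale (edgeR adjusted p = 0.12 and 0.19). The ETO difference of MNT passed in a fit of the 2 groups alone (1.37, edgeR adjusted p = 0.023). MGA stood at −0.85 ± 0.41 with CPT (edgeR adjusted p = 0.25), MLX at −0.27 ± 0.27 (edgeR adjusted p = 0.62) and MXI1 at 0.34 ± 0.70 (edgeR adjusted p = 0.83).

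All these differences are relative to the new RNA of a library. With library sizes from all reads the median over all genes moved from −0.06 to −0.91 for CPT against control and from −0.05 to −0.93 for CPT against ETO. Of the genes called for CPT against control 56.5% were higher in the first scaling and 1.88% in the other. On the all-reads scale MYC fell by 3.33 and MAX by 1.89 with CPT, and MXD3, MGA (−1.69) and MLX (−1.11) were also called (edgeR adjusted p = 0.0099, 0.0026 and 0.0024). MXD1 and MXI1 changed sign, from 0.46 and 0.34 to −0.37 and −0.49, and were called on neither scale. MYC held 65.6% ± 0.757 of the network's new reads in control, 31.4% ± 4.81 with CPT and 70.9% ± 2.42 with ETO (SD, n = 3), which depends on no scaling.

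How much of each gene's RNA was new was read from the share of its reads with a conversion, which rises with faster renewal. Among 10724 genes that reached 100 reads in every control the median was 2.59%. MYC had 27.6%, 28.9% and 26.7% in the 3 control libraries, at the 99.98th percentile of those genes. MXD1 followed with 11.8%, 13.2% and 12.6% (97.6th percentile), and was the only other member above the 80th. MGA (5.19% ± 0.471), MLX (4.92% ± 0.847) and MAX (3.36% ± 0.219) lay above the median gene, at the 78.3rd, 76.4th and 61.0th percentiles. MNT (3.08% ± 0.882), MXI1 (2.82% ± 0.757) and MXD3 (2.06% ± 0.586) lay near it and do not differ beyond their spread. MXD4 was lowest at 1.03% ± 0.763 (SD, n = 3), at the 19.6th percentile, from 24 new reads in 2183. These are descriptions, and a read can carry a conversion only where it covers a T.

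MYC's new share was 20.6%, 21.2% and 20.5% with CPT and 38.8%, 37.8% and 36.5% with ETO. The 3 groups did not overlap. The median over the 9924 genes with at least 100 reads in all 9 libraries was 2.56% for control, 1.40% for CPT and 2.68% for ETO. On the log2 scale of the new-to-old ratio, where the median gene moved by −0.89 with CPT, MYC differed by −0.55 ± 0.26 (edgeR adjusted p = 0.13). With ETO, where the median gene moved by 0.08, MYC differed by 0.66 ± 0.24 (edgeR adjusted p = 0.41, unadjusted p = 0.019). CPT was below ETO by 1.20 ± 0.26 (edgeR adjusted p = 0.0100), where the median gene moved by −0.96. That call did not pass in a fit of the 2 groups alone (edgeR adjusted p = 0.078).

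The new share of MAX went with CPT from 3.12%, 3.42% and 3.55% to 0.869%, 0.883% and 1.44%, a log2 difference of −1.72 ± 0.24 (edgeR adjusted p = 0.0042). MXD3 had 33 new of 1594 reads in control (2.07%) and 0 of 908 with CPT. With 3 reads in place of 0 its CPT share would be 0.3304%, 6.27 times lower, which is no firm limit for the reasons given above. MGA fell from 5.19% to 2.17% (−1.31 ± 0.40, edgeR adjusted p = 0.041) and MLX from 4.92% to 2.43% (−1.04 ± 0.30, edgeR adjusted p = 0.033). For the size of their SE, both lie close to the −0.89 of the median gene. MXD3, MGA and MLX lost these calls without any 1 of the 3 control libraries (edgeR adjusted p = 0.057 to 0.13), and MGA and MLX also without CPT library 2 or 3 (edgeR adjusted p = 0.051 to 0.067). MNT stood at 3.08% in control and 3.38% with CPT (0.15 ± 0.53), and MXI1 stood at 2.82% and 2.57% (−0.12 ± 0.64), neither past the test (edgeR adjusted p = 0.84 and 0.90).

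For the new-to-old ratio 4 of 9 members were called with CPT, all lower, against 20.4% of all genes. The test is against no change, while the median of all genes was −0.89, so these calls include the shift of all genes. Without control library 1, 2 or 3, 1 member, MAX, was called, and the genes called went from 2022 to 252, 316 and 254. Without CPT library 2 or 3, 2 members were called. None was called with ETO, against 0.383% (38 genes), where 1 member had an unadjusted p under 0.05 and no other tool was run. For CPT against ETO, where the median of all genes was −0.96, 5 were called, all lower (MYC, MAX, MXD3, MGA and MLX), against 26.9%. Without ETO library 2 this count was 3.

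**Figure D3:**
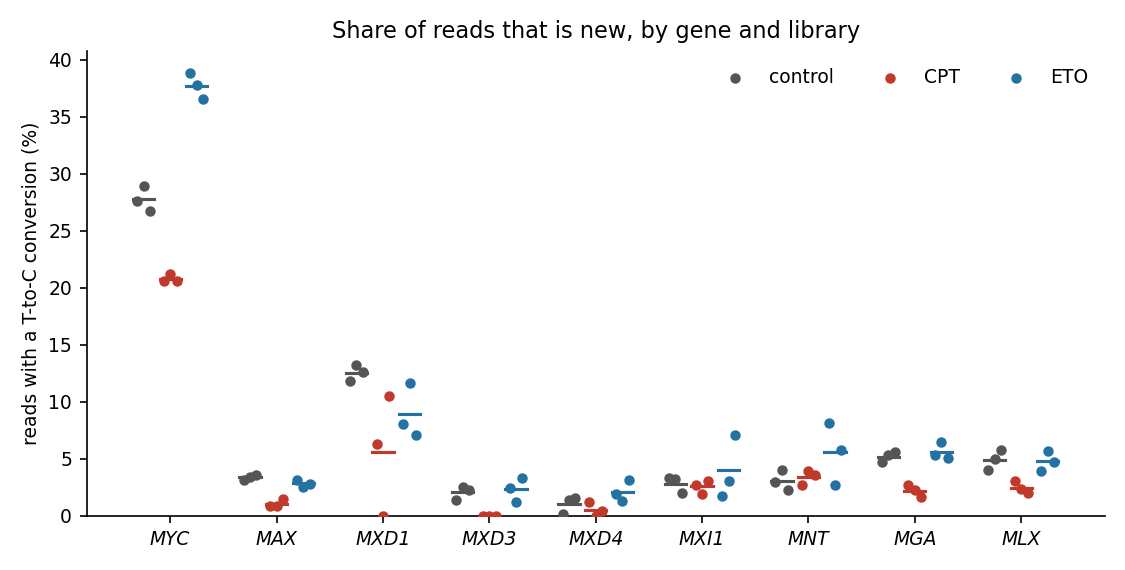
Points are libraries and lines means of 3 (percent of a gene's reads that are new, axis starting at 0) for each member in control, CPT and ETO. MYC stands at 27.7% for control, 20.8% for CPT and 37.7% for ETO, and MXD1 at 12.5% in control.

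MAX has 3' ends in separate line groups of its locus. The one farthest upstream on the minus strand, 436 bases long at chr14:65083744-65084179, held 2.02% ± 0.204 of MAX reads in control, 1.41% ± 0.996 with CPT and 1.12% ± 0.428 with ETO (SD, n = 3). The CPT libraries ran from 0.372% to 2.36% and overlapped the controls (exact two-sided permutation p = 0.5), and the ETO libraries lay below them (p = 0.1, exact, the smallest possible).

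Genes that MYC is known to activate, such as ribosome assembly factors and metabolic enzymes, differed between the treatments in total RNA. Of 35 listed, 34 were tested; 25 were called lower and 3 higher with CPT, 5 lower and 19 higher with ETO, and 32 lower and 0 higher for CPT against ETO. Of all genes 52.0%, 37.9% and 33.9% were called in these comparisons, in either direction. The list's medians were −0.36, 0.21 and −0.54 on the log2 scale, where the median of all genes was −0.0043, 0.0059 and 0.011. NPM1, a nucleolar chaperone, fell with CPT from 2361 ± 21.0 to 1311 ± 34.0 CPM (−0.85 ± 0.042, edgeR adjusted p = 3.6e-13), and RCC1, the exchange factor of RAN, from 437 ± 10.7 to 210 ± 6.93 CPM (−1.06 ± 0.052). HSPD1, a mitochondrial chaperonin, and LDHA, lactate dehydrogenase, fell by 0.86 ± 0.044 and 0.73 ± 0.044. With ETO, SRM, spermidine synthase, rose from 302 ± 46.1 to 479 ± 8.57 CPM (0.66 ± 0.075, edgeR adjusted p = 4.6e-07) and MTHFD2, an enzyme of mitochondrial folate metabolism, by 0.38 ± 0.051, while RCC1 and LDHA fell by 0.56 ± 0.052 and 0.35 ± 0.044. NOP16 and PA2G4, factors of ribosome assembly and growth, were lower with CPT than with ETO by 0.86 ± 0.066 and 0.62 ± 0.049. Of the 31 listed genes in the promoter table, 19 (61.3%) had CACGTG in a promoter. The list was written from textbook targets, many of them described through such sites, so this share describes the list. This list and the others below were chosen with earlier results of these data known. Their counts beside those of all genes are therefore descriptions.

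In new RNA the same list showed few calls. With CPT, where 6.26% of all genes were called, 3 of 33 tested were higher and 1 lower, with a median of −0.09 against −0.06 for all genes. MTHFD2 (0.62 ± 0.13), SHMT2, its serine-handling neighbour in folate metabolism (1.09 ± 0.29), and RCC1 (0.39 ± 0.11) were higher, and NPM1 fell by 0.69 ± 0.15 (edgeR adjusted p = 0.0046, 0.025, 0.028 and 0.0068). These directions depend on the scaling. With library sizes from all reads 0 of the 33 were higher and 18 lower with CPT (list median −0.93, all genes −0.91), MTHFD2 stood at −0.22 ± 0.13 and SHMT2 at 0.26 ± 0.30, neither called, and RCC1 was called lower, at −0.45 ± 0.11 (edgeR adjusted p = 0.0027). With ETO, against 1.96% of all genes, 4 were higher and 0 lower (median 0.34 against 0.0043): RCC1 rose by 0.64 ± 0.10, CAD, which starts pyrimidine synthesis, by 1.38 ± 0.29, and the nucleolar factors NOP56 and NOLC1 by 0.85 ± 0.19 and 0.77 ± 0.20 (edgeR adjusted p from 4.3e-04 to 0.048). All 4 were also called higher with library sizes from all reads. RCC1 was thus higher in new RNA and lower in total RNA with ETO on both scales. For CPT against ETO, where 2.00% of all genes were called, 1 gene of the list was called, WDR43, a ribosome assembly factor (−1.14 ± 0.28, edgeR adjusted p = 0.027), with a list median of −0.40 against −0.05. With library sizes from all reads 30 of 33 were lower there (median −1.29 against −0.93).

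Of 9 genes that MYC is known to repress, 8 were tested in total RNA. With CPT 5 were higher and 2 lower (median 0.53), with ETO 2 higher and 2 lower (median −0.08), and 6 were higher and 0 lower for CPT against ETO (median 0.62). The shares of all genes called were the 52.0%, 37.9% and 33.9% given above, so the 4 of 8 called with ETO lie near the background, and the medians of all genes were −0.0043, 0.0059 and 0.011. CDKN1A, the p21 inhibitor of cyclin-dependent kinases and also a p53 target, rose from 7.51 ± 0.338 to 37.1 ± 1.76 CPM with CPT (2.30 ± 0.12, edgeR adjusted p = 8.7e-13), and stood 2.11 ± 0.12 above ETO. GADD45B, a stress sensor, and CEBPD, a differentiation factor, rose by 1.33 ± 0.13 and 1.24 ± 0.14 with CPT. NDRG1, a stress-responsive cytoplasmic protein, fell with both, by 0.96 ± 0.072 and 1.33 ± 0.072. In new RNA with CPT, where 6.26% of all genes were called, 1 of 8 was called. This was CDKN1B, the p27 inhibitor, at 0.57 ± 0.16 (edgeR adjusted p = 0.033). With library sizes from all reads it stood at −0.27 ± 0.16 and was not called.

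**Figure D4:**
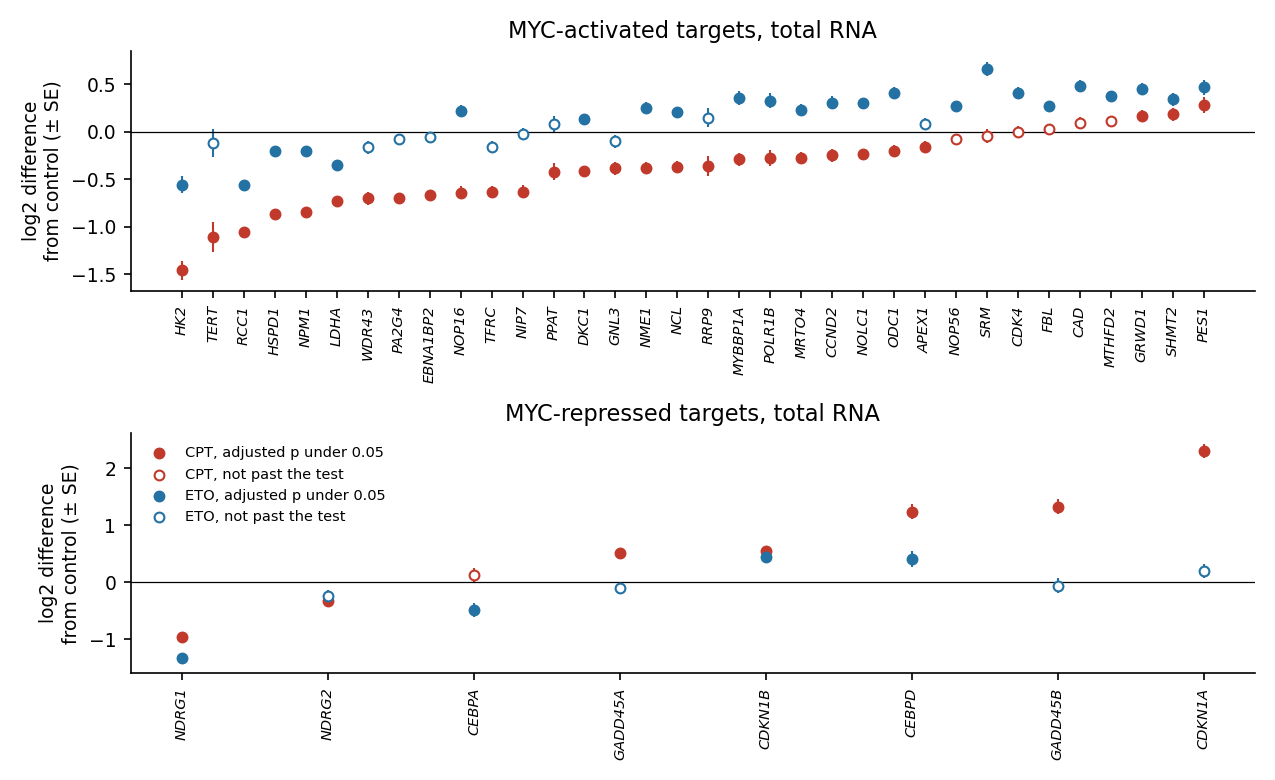
Points are log2 differences of total RNA from control (± SE, 3 against 3 libraries) for genes MYC is known to activate (top, 34 genes) and repress (bottom, 8 genes), ordered by the CPT value and filled where the edgeR adjusted p is under 0.05. With CPT 25 of 34 activated targets were lower, and with ETO 19 were higher.

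Around MLX, TXNIP, an inhibitor of glucose uptake whose gene is a classic target of MLX and its partners, rose with both treatments. Its total RNA went from 123.0 ± 6.18 to 274 ± 9.01 CPM with CPT (1.16 ± 0.056, edgeR adjusted p = 3.6e-13) and 186 ± 3.30 CPM with ETO (0.60 ± 0.056, edgeR adjusted p = 3.3e-08). Its new RNA rose by 1.42 ± 0.097 and 0.73 ± 0.095 (edgeR adjusted p = 2.1e-10 and 2.1e-05). ARRDC4, a relative of TXNIP with the same kind of site, rose by 0.52 ± 0.17 in total RNA with CPT (edgeR adjusted p = 0.014). MLXIP was lower with CPT than with ETO by 0.24 ± 0.072 on the log2 scale (edgeR adjusted p = 0.013). In all, 2 of 4 genes of this list were higher in total RNA with CPT, 1 of 4 with ETO and, for CPT against ETO, 1 was higher and 1 lower. Of all genes 52.0%, 37.9% and 33.9% were called there, in either direction, so these counts set the list little apart. In new RNA TXNIP was the 1 of 3 tested that was called, higher in each comparison (all genes 6.26%, 1.96% and 2.00%). With library sizes from all reads it was called higher with CPT (0.58) and ETO (0.77) and stood at −0.19 for CPT against ETO, not called. Of the MYC paralogs, MYCL fell in total RNA from 22.4 ± 1.44 to 15.8 ± 2.07 CPM with CPT and 16.7 ± 1.23 CPM with ETO (−0.50 ± 0.11 and −0.42 ± 0.11, edgeR adjusted p = 9.9e-04 and 0.0050), and MYCN was not called.

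Among 12 MYC cofactors 6 were higher and 4 lower in total RNA with CPT (median 0.11), where 52.0% of all genes were called. RUVBL1 and RUVBL2, paired ATPases of chromatin complexes, fell by 0.65 ± 0.066 and 0.58 ± 0.060, and CCNT1, a cyclin that helps release paused polymerase, rose by 0.46 ± 0.065. With ETO 3 were higher and 3 lower (all genes 37.9% called), and for CPT against ETO again 3 and 3 (all genes 33.9%). The 6 of 12 called with ETO and for CPT against ETO set the cofactors little apart from all genes. The 6 higher and 4 lower of 12 with CPT were a larger share than the 52.0% of all genes, in both directions. Among 8 regulators of MYC protein turnover 5 fell and 2 rose with CPT, where 52.0% of all genes were called. FBXW7 and SKP2, ubiquitin ligase subunits that target MYC, fell by 0.57 ± 0.072 and 0.57 ± 0.065, GSK3B, a kinase that marks MYC for FBXW7, by 0.69 ± 0.069 and AURKA, a mitotic kinase that can shield MYC proteins, by 0.53 ± 0.058. AURKA fell further with ETO (0.87 ± 0.058), and its new RNA fell by 1.17 ± 0.21 with CPT and 1.56 ± 0.20 with ETO (edgeR adjusted p = 7.8e-04 and 1.5e-05).

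Of the corepressors through which MXD proteins and MNT act, 5 of 6 listed were tested. With CPT, SIN3B rose by 0.32 ± 0.077 and SIN3A and NCOR1 fell by 0.34 ± 0.092 and 0.42 ± 0.066. Of 7 tested genes of the MGA complex 3 fell and 1 rose with CPT: RNF2 by 0.55 ± 0.089, CBX3 by 0.37 ± 0.047 and E2F6 by 0.22 ± 0.071 down, and L3MBTL2 by 0.28 ± 0.083 up. That is near the 52.0% of all genes called. With ETO TFDP1 and L3MBTL2 were higher and RNF2 lower.

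The genes whose levels ran most like MYC across the 9 bulk libraries were ranked by Pearson's r of log2 CPM, as a description, since the libraries fall into 3 groups. In new RNA, over 4866 genes with at least 50 CPM in control, these were ETV6 (r = 0.988), FBXW2 (0.962), IARS1 (0.960), MOB1B (0.954) and TNRC6C (0.948). Their CPT differences ran from −1.81 (MOB1B) to −0.54 (IARS1), smaller than that of MYC. In total RNA, over 3961 genes, they were NEU3 (r = 0.997), GNAQ (0.996), NDUFAF3 (0.996), MGMT (0.996) and RUNX1 (0.996), with CPT differences from −1.15 (GNAQ) to −0.60 (NDUFAF3).

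Stimulated Jurkat cells asked whether PMA and ionomycin change MYC as CPT did. UMIs were summed per library and scaled to the library's total as CPM. In the libraries labelled replicate 1, called set 1, MYC had 86.9 CPM without and 43.0 CPM with stimulation, 2.02 times lower. In the libraries with no number, called set 2, it had 80.3 CPM (73.9 to 87.1, exact Poisson 95% interval for counting error) and 74.3 CPM (70.7 to 78.1), and these intervals overlap. The stimulated libraries are labelled clone E6-2 and the unstimulated E6-1, so clone and stimulation cannot be told apart. Over both sets the log2 difference was −0.43 ± 0.56 (edgeR adjusted p = 1.0). With the sets as a replicate block MYC (−0.57, edgeR adjusted p = 1.6e-04) and MXI1 (−0.63, edgeR adjusted p = 7.6e-04) were called lower among 2058 genes, though set 2 carries no number in the labels. By edgeR without the block 0 of 9 members, none with an unadjusted p under 0.05, and 0 of 19099 genes (0%) were called, with 218 genes at an unadjusted p under 0.05 and 50 called by DESeq2. Without stimulated library 1 the MYC difference was 0.04, which sets the stimulated library of set 2 against the unstimulated libraries of both sets.

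For some members the sets differed more than the stimulation did. MGA had 211 and 219 CPM in set 1 (unstimulated and stimulated) and 104 and 92.1 CPM in set 2, and MXD4 had 15.1 and 14.0 against 51.8 and 45.1 CPM. MLX had 20.9 and 21.0 CPM in set 1 and 50.7 and 54.4 CPM in set 2. For these genes, the level followed the set. MXI1 went from 31.8 to 17.7 CPM in set 1 and from 17.6 to 13.9 CPM in set 2, lower by 1.80 and 1.27 times. MXD1 stood at 22.5 and 26.8 CPM in set 1 and at 10.9 and 16.0 CPM in set 2. MAX had 65.2 and 66.1 CPM in set 1 and 50.4 and 51.2 CPM in set 2. MXD3 stood at 16.6 and 11.5 CPM in set 1 and at 29.2 and 28.3 CPM in set 2, and MNT at 9.28 and 11.4 CPM in set 1 and at 22.6 and 18.1 CPM in set 2.

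The share of cells with at least 1 MYC UMI was compared after thinning each cell to 5000 UMIs, which left out 82 to 207 cells a library. It was 29.3% and 31.3% in the unstimulated and 15.9% and 27.2% in the stimulated libraries of sets 1 and 2 (exact two-sided permutation p = 0.33, the smallest that 2 against 2 can give). Unthinned shares were 61.9% and 52.3% against 41.7% and 43.6%, at median depths of 17481, 14975, 17284 and 8876 UMIs. Free RNA gave human MYC UMIs in 3 of 291 mouse cells of the mixed library (1.03%, exact binomial 95% interval 0.213% to 2.98%) at a median of 3644 UMIs, against 67 of 239 human cells (28.03%) at a median of 3841.

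Naive mouse T cells, in contrast, held little Myc before stimulation. With 1 library a time there is no test, and intervals are exact 95% intervals that cover counting error only. Myc had 8.10 CPM in the library without 4sU and 4.10 CPM (0.846 to 11.99, 3 UMIs) at 0 h, then 103 CPM (81.2 to 128) at 2 h, 123.3 CPM (101 to 149) at 4 h, 61.3 CPM (48.5 to 76.5) at 6 h and 26.7 CPM (16.1 to 41.8) at 8 h. It was high from 2 h, highest at 4 h with an interval that overlaps that of 2 h, and lower again at 6 and 8 h. Against 0 h the ratios were 25.04 (8.26 to 124), 30.1 (10.0 to 148), 14.9 (4.93 to 74.1) and 6.52 (1.92 to 34.4).

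The antagonists of resting cells showed the opposite course. Mxd4, the most abundant member at 0 h, had 182 CPM (133 UMIs) at 0 h, 21.1 CPM at 2 h, 4.57 CPM at 4 h, 0 at 6 h and 2.81 CPM at 8 h. It was 8.63 times lower at 2 h and 39.8 times lower at 4 h. At 6 h, with 0 UMIs, the interval of its ratio to 0 h ran from 0 to 0.0162. With 3 UMIs in place of 0 it stood 77.1 times lower. At 8 h, with 2 UMIs, the ratio was 0.0155 (0.00185 to 0.0570). Mxi1 went from 28.7 CPM through 7.90, 2.28 and 0.786 CPM to 0 at 8 h, where its ratio's interval ran from 0 to 0.198. Mxd1 went from 21.9 CPM to 3.95, 4.57, 0.786 and 5.63 CPM. In the unstimulated library without 4sU Mxd4, Mxi1 and Mxd1 had 111, 47.8 and 19.1 CPM.

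Max was at 42.4 CPM at 0 h, lowest at 2 h with 18.4 CPM (ratio 0.435, 0.214 to 0.842), and at 27.4, 34.6 and 36.6 CPM at 4, 6 and 8 h. Mga stayed between 31.0 and 41.0 CPM, with every ratio's interval including 1. Mlx had 15.0, 11.9, 18.3 and 15.7 CPM up to 6 h and 46.4 CPM at 8 h, a ratio of 3.09 (1.52 to 6.77). Mnt, with 2 to 12 UMIs, and Mxd3, with 0 to 4, were too shallow to follow.

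Counts of members were taken over those with at least 20 UMIs at 0 h, so that no gene entered through its later level, a filter chosen after the data were seen. This left Max, Mxd4, Mxi1 and Mga, and left out Myc. At 2 h 3 of these 4 were at least 2-fold lower (Max, Mxd4 and Mxi1), where 25.0% of all 3901 such genes were. At 4, 6 and 8 h 2 of 4 were (Mxd4 and Mxi1), where 38.4%, 42.8% and 43.1% of all genes were. All 4 times are set against the same 0 h library. Myc made up 1.15% of the network's UMIs at 0 h (0.238% to 3.32%), 51.0% at 2 h (42.8% to 59.1%), 54.0% at 4 h (46.8% to 61.1%), 40.0% at 6 h and 17.6% at 8 h (exact binomial 95% intervals).

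Of the 35 listed MYC-activated targets, 21 had at least 20 UMIs at 0 h. At 2 h 14 of these 21 stood at least 2-fold higher, where 6.10% of all such genes did. At 4, 6 and 8 h 21 of 21 did, where 13.3%, 15.1% and 16.7% of all genes did. The list was chosen with earlier results of these data known, so the contrast with all genes is a description. The median log2 ratios of the 21 were 1.25, 2.42, 2.63 and 2.64, where the medians of all genes were −0.29, −0.58, −0.70 and −0.68. Of the 9 listed MYC-repressed targets, 1 had at least 20 UMIs at 0 h. It was at least 2-fold lower each time, as were 25.0%, 38.4%, 42.8% and 43.1% of such genes. With at least 20 UMIs over both libraries, 4, 3, 3 and 3 were tested. Of these, 2, 2, 2 and 1 were at least 2-fold higher and 1 was lower each time. Of all genes so filtered, 11.5%, 20.9%, 22.5% and 24.9% were higher and 20.3%, 28.9%, 32.1% and 33.0% lower. Genes can pass that filter through their rise. The first activated targets show the size. Odc1, the first enzyme of polyamine synthesis, went from 243 CPM to 674, 851, 650.2 and 620.7 CPM. Ncl, nucleolin, went from 339 CPM to 760.1, 2034, 2443 and 2467 CPM, and Npm1 from 369 CPM to 499, 1511, 1827 and 2203 CPM. Txnip, which rose in Jurkat cells with CPT and ETO, went from 157 CPM to 17.1, 4.57, 1.57 and 2.81 CPM here.

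**Figure D5:**
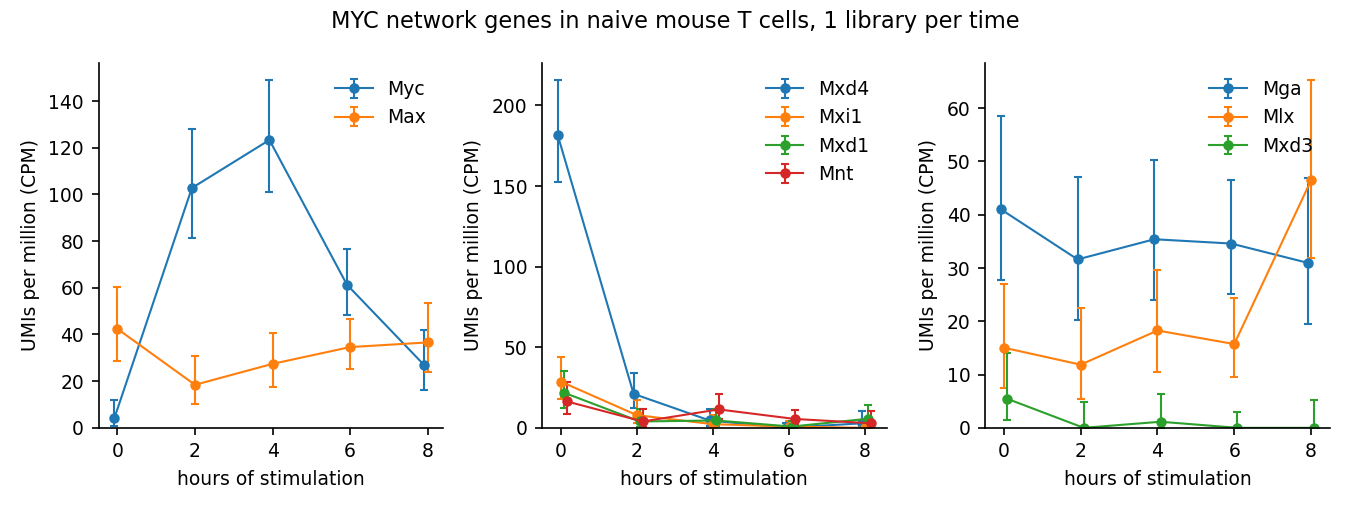
Points are UMIs scaled to CPM with exact Poisson 95% intervals against hours of stimulation, 1 naive T library a time, and lines join the times. Myc reaches 123.3 CPM at 4 h, while Mxd4 goes from 182 CPM at 0 h to 0 at 6 h.

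Across the human single-cell libraries MYC was highest in the K562-labelled ones, at 124 CPM (93.7 to 162) and 105 CPM (98.6 to 111), followed by the Jurkat cells of the mixed library at 91.8 CPM (75.2 to 111), unstimulated Jurkat set 1 at 86.9 CPM, eHAP NOTE-seq at 85.9 CPM (82.8 to 89.1) and unstimulated Jurkat set 2 at 80.3 CPM. The counting intervals of neighbours in this order overlap. The first of the K562-labelled libraries held 49 cells. Mouse NIH3T3 cells had 262 CPM of Myc (234 to 293) and 57.3% of the network's UMIs. The K562-labelled libraries had the highest MAX (151 and 106 CPM) and MXI1 (88.2 and 41.2 CPM) and the lowest MGA among human cells other than methanol-fixed eHAP (9.04 and 8.36 CPM).

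The 3 eHAP libraries differed in MYC level, with 1 library each and no test; protocol, 4sU and library cannot be told apart. MYC had 44.8 CPM by standard 10x, 85.9 CPM by NOTE-seq and 7.203 CPM (6.63 to 7.81) after methanol fixation, 6.22 times lower than by 10x. The methanol library was also lower for MGA (7.39 against 73.3 CPM), MNT (1.98 against 10.3 CPM), MXD1 (2.63 against 13.3 CPM), MXI1 (9.36 against 23.8 CPM) and MAX (16.1 against 53.2 CPM). It was not lower for MLX (45.9 against 50.3 CPM), MXD4 (10.4 against 11.0 CPM) or MXD3 (18.4 against 12.2 CPM) by more than 1.10 times. So MYC held 15.3% of the network's UMIs by 10x, 22.7% by NOTE-seq and 6.04% with methanol, in cells of the same line. Mitochondrial genes took 4.67%, 2.17% and 1.77% of UMIs in these libraries, and their part in the differences was not tested.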

How the data were processed

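The SLAM-seq tables give deposited counts of all reads and of converted reads for each 3' UTR line, which the authors made with slamdunk 0.4.3 and GENCODE V33, per the file headers. The single-cell tables hold deposited UMI counts from cellranger 7.1.0 (human) and 7.2.0 (mixed library and naive T cells), with builds GRCh38 and mm10, per the submitters' processing notes. The SLAM-seq libraries have no molecular identifiers, so reads may be copies, and intervals cover counting error only.

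The 122255 lines were joined where they overlap into 68330 groups, each represented by its line with most reads, and named by the 1 RefSeq gene on its strand whose span holds it, with 1000 bases allowed past the 3' end; a gene is the sum of its groups, and 91.42% of reads were named. Mitochondrial genes were left out. edgeR 4.0.16 (R 4.3.3) quasi-likelihood tests, fitted over the 3 groups without a replicate block and adjusted over all genes, were the main test, with DESeq2 1.42.0 among the alternatives. The new-to-old ratio was tested on counts of new and old reads in genes with at least 100 reads in each library. Exact tests used scipy 1.17.1. The fits were tested on simulated data: of 100 genes changed 4-fold between CPT and control, 61% were recovered in new RNA (8514 genes) and 88% in total RNA (14034 genes), and of 100 changed 2-fold 17% and 76%.

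The members and the 8 gene lists were chosen with earlier results of these data known. Beside the members, the text names up to 4 called genes of a list in a comparison, by smallest p, and the 5 genes most correlated with MYC. In naive T cells, where there is no p, Odc1, Ncl and Npm1 were named as the first genes of their list. Txnip was named there after its values were seen. Mouse SLAM-seq tables were not used here. Cells were kept as deposited, and doublets were not called; 56 of 586 barcodes of the mixed library with under 90% of UMIs from 1 species were left out. One gene of the cofactor list is counted with it but not reported here by name.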

Additional observations from a re-analysis of the deposited data

Results flagged for a closer look

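Under stimulation the log2 ratio of MYC was below 0 in both Jurkat sets, without a call over both, and above 0 in naive T cells. In Jurkat cells given PMA and ionomycin the log2 ratio of MYC to the unstimulated library was −1.02 in set 1 and −0.11 in set 2, where the counting intervals overlap. Over both sets MYC was not called (edgeR adjusted p = 1.0), in a fit that called 0 of 19099 genes. With the sets as a replicate block MYC was called lower, as given above. Without stimulated library 1 its difference was 0.04, which sets the stimulated library of set 2 against the unstimulated libraries of both sets. In naive mouse T cells given anti-CD3 and anti-CD28 the ratio of Myc to 0 h was 4.65 at 2 h, 4.91 at 4 h, 3.90 at 6 h and 2.70 at 8 h. MAX also differed in sign, at 0.019 and 0.023 in the Jurkat sets and −1.20, −0.63, −0.29 and −0.21 in naive T cells at 2, 4, 6 and 8 h. The Jurkat values lie within counting error of 0, as do the naive T values at 4, 6 and 8 h, so no opposite direction is shown for MAX. The difference was not tested, and species, stimulus, cell type and, within Jurkat, the labelled clone differ with the contrast and cannot be told apart. The length of stimulation is given here for naive T cells only. The naive T ratios rest on 1 library a time and on the same 0 h library.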

How the results depend on the processing

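No member changed its direction past a threshold in any alternative run; among listed genes, RCC1 in new RNA with CPT went from 0.39, called higher, to −0.45, called lower, with library sizes from all reads. MTHFD2 and CDKN1B with CPT (−0.22 and −0.27) and TXNIP for CPT against ETO (−0.19), called higher in new RNA, also turned negative on that scale, without a call. With library sizes from all reads, new RNA calls were 3462 for CPT against control and 3577 for CPT against ETO, with 5 members called in each, and 1 member for ETO (MYC, 0.44). DESeq2 called 875, 344 and 388 genes in new RNA for CPT, ETO and CPT against ETO, with 1 member for ETO (MYC, 0.40) and MXD3 added for CPT (−4.36, DESeq2 adjusted p = 0.044), and a fit of 2 groups only called 346, 893 and 56, with 2 members for ETO (MYC, 0.40, and MNT, 1.37). In that fit the ratio gave 1218, 234 and 205 genes, with 2 members for CPT and 1 for CPT against ETO, where MYC stood at −1.20 (edgeR adjusted p = 0.078). The total RNA difference of MYC with ETO was 0.0042 by DESeq2 and 0.0045 with 2 groups only. The causes were not tested.

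Leaving out 1 library each gave 237 to 807, 93 to 116 and 60 to 378 new RNA calls in the same order, with 1 to 2 members for CPT against ETO, and −0.071 to 0.046 for MYC total RNA with ETO. The ratio gave 252 to 2287, 1 to 13 and 1462 to 2882 genes, with 1 to 4 members for CPT and 3 to 6 for CPT against ETO.

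In SLAM-seq, same-numbered libraries did not deviate together (every r between −0.028 and 0.024), and the replicate block left the members called as they were, with 425, 144 and 130 new RNA and 7462, 5339 and 4749 total RNA calls. For the Jurkat single cells a replicate block, with the sets as pairs, called 2058 genes and 2 members, MYC (−0.57) and MXI1, against 0 without it; only set 1 carries a number in the labels, so the pairing is a hint from the data. DESeq2 called 50 genes there, no filter 12, and leaving out 1 library gave 0 to 40 genes and −1.12 to 0.044 for MYC. Thinned to 2000 UMIs, 14.4% and 14.8% of unstimulated and 7.67% and 13.6% of stimulated cells had a MYC UMI. With at least 20 UMIs over both libraries in place of at 0 h, 23 of 32, 34 of 34, 34 of 34 and 33 of 33 MYC-activated targets were at least 2-fold higher in naive T cells at 2, 4, 6 and 8 h, a count that genes can enter through their rise. Without mitochondrial genes MYC stood at 47.0 CPM in eHAP by 10x. By conversions per T, MAX, MXD3 and MGA stood at percentiles 51.9, 54.6 and 83.4. New reads limit the members other than MYC and MAX, which had 0 to 207 a library.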
